A study of Mus musculus with 2 samples.

Results

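The Gata1, Gata2 and Zfpm1 genes encode the factors at the centre of the GATA switch, and the peaks of the Gata1 protein around these 3 genes are described here. A peak belonged to a locus when its midpoint lay in the gene body or within 100 kb of either end, which gave 17 of the 4135 peaks: 2 at Gata1 on the X, 7 at Gata2 on chromosome 6 and 8 at Zfpm1 on chromosome 8. The peaks came from chromatin immunoprecipitation and sequencing (ChIP-seq) with 1 rabbit antibody to Gata1. The cells carried a Runx1-ires-GFP and a Gata1::mCherry reporter, and those positive for both were sorted from mouse embryoid bodies after 5 days of differentiation. Embryoid bodies are aggregates of embryonic stem cells that form early blood, and the study's design calls the sorted population primitive erythroid. The study comprised 1 Gata1 ChIP library and 1 input library of the same kind of cells, and sorted cells were pooled from several sorts. The control's title calls it input chromatin, but a rabbit IgG is given as its antibody, while its description states that material was too scarce for an IgG ChIP. No values of it were analysed here.

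Gata2 and Gata1 are zinc finger factors that bind GATA sequences, and both can occupy the same sites. Gata2 acts in blood stem and progenitor cells, and Gata1 takes over in red cell and megakaryocyte development. In the GATA switch, as known from mouse erythroid cell lines, Gata1 replaces Gata2 at elements of the Gata2 gene while Gata2 is silenced. FOG-1, the product of Zfpm1, does not bind these sites itself. It binds the amino-terminal zinc finger of Gata1, helps this exchange and recruits the NuRD corepressor complex. The Gata1 gene is also bound by GATA factors at its own upstream elements.

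The list gives each peak as an interval of 400 bp with no height, score or p-value, so the strength of a site cannot be given. Read depth is unknown, and weaker binding than the peak caller's threshold, which is not stated, cannot be seen. With 1 library there is no replicate, so no test between groups could be made and every comparison below is a description. Expression was not measured, so the sort label could not be checked against RNA. Of 6 erythroid genes, 5 had a peak in the gene or within 10 kb: the embryonic globin genes Hba-x and Hbb-y, and Klf1, Epor and Alas2, which are active in red cells of any stage. The embryonic Hbb-bh1 had its nearest peak at 16.1 kb. Such a peak was found for 16.6% of 21792 protein-coding genes. The 6 genes were listed with earlier results of these data known.

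The starts of the genes are shown because the peaks stood in a different relation to the start in each of the 3 genes. RefSeq lists 4 starts for them in assembly GRCm38.p6, the sequence of mm10. Each window runs from 250 bases before the start to 50 bases after it, 5′ to 3′ on the gene's strand. Capitals mark GATA or CACCC on either strand, so TATC and GGGTG count as matches. GATA is the core that Gata1 binds, and CACCC is bound by Klf1, the erythroid factor that often acts beside it. The windows are at chrX:7967861-7968160 (minus strand, Gata1), chr6:88193641-88193940 (plus strand, the distal Gata2 start), chr6:88198414-88198713 (plus strand, the proximal Gata2 start) and chr8:122281891-122282190 (plus strand, Zfpm1).
Gata1 start: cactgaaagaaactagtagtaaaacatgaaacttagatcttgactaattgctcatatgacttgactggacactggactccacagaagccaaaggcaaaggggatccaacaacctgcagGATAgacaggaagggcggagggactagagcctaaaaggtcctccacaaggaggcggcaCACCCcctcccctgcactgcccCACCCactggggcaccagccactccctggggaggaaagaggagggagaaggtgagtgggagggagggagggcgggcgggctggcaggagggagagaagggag
Gata2 distal start: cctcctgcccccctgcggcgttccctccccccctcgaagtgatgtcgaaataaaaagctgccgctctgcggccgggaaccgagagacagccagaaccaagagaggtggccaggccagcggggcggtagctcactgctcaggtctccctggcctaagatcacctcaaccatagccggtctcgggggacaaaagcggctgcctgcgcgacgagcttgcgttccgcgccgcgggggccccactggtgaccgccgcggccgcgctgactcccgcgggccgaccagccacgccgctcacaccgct
Gata2 proximal start: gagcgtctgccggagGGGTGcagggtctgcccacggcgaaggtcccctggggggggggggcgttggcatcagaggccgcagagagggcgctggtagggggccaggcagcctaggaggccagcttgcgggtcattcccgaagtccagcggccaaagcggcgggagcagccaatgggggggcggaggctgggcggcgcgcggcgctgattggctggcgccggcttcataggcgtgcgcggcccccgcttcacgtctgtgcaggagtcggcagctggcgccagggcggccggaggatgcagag
Zfpm1 start: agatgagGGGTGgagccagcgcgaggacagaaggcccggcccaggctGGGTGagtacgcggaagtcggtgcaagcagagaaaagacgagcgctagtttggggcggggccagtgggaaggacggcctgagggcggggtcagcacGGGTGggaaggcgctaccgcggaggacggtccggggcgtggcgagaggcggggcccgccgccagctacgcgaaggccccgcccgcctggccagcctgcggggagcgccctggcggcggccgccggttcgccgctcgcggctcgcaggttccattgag

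A peak reached into only 1 of these 4 windows, the one at the distal Gata2 start. It covered the last 67 bases, chr6:88193874-88193940 on the plus strand, shown here because it is the part of the 4 windows that lay within a peak.
Gata2 distal start, bases in the peak: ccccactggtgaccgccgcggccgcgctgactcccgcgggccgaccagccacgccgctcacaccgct
Among all 21263 listed starts of protein-coding genes, 2.13% had a window that a peak overlapped. The nearest peak began 83 bp beyond the upstream end of the Gata1 window, 453 bp beyond the downstream end of the Zfpm1 window and 4141 bp from the proximal Gata2 window.

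GATA occurred once in the Gata1 window, at position -132 from the start, and in none of the other 3 windows. The same letters were present in 65.5% of the 452 starts that a peak overlapped, against 53.2% of all listed starts. The longer forms preferred by Gata1 include GATA: these are AGATAA with its variant TGATAA, and likewise AGATAG with its variant TGATAG. None of the 4 windows held any of them on either strand, which were present in 40.5% of the starts with a peak and 26.0% of all starts. CACCC occurred 2 times at the Gata1 start, at positions -74 and -52, 3 times at the Zfpm1 start, once at the proximal Gata2 start and not at the distal one. It was present in 64.2% of the starts with a peak and 59.5% of all starts. CANNTG, the E-box that Tal1 binds with its E-protein partners, occurred once at the Gata1 start and once at the proximal Gata2 start. It was present in 57.7% of the starts with a peak and 69.0% of all starts, the reverse order of the other motifs. Bases G and C made up 57.3% of the Gata1 window, 69.3 and 73.7% of the distal and proximal Gata2 windows and 73.7% of the Zfpm1 window, with a median of 56.3% over all starts. The absence of a motif here says only that these letters are not in these 300 bases, and the intervals themselves extend beyond them.

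The Gata1 gene, which encodes the master regulator of red cell development, had both of its peaks just upstream of its listed start. They lay at chrX:7971303-7971702 and chrX:7968243-7968642, with midpoints at -3.59 and -0.53 kb from the start (negative values are upstream). The midpoints were 3.06 kb apart. No peak lay between the listed start and the gene end, a stretch of 8.65 kb; Gata2 had 2 there and Zfpm1 8, numbers reached by 1.31% and 0.00572% of genes. The gene record extends 8.75 kb upstream of the listed start, so by the record both peaks were inside the gene. The record also overlaps the noncoding genes Gm52419 and Gm39488, and both midpoints lay inside both of them.

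Gata1 and Gata2 each had 2 peaks in the 5 kb upstream of the start, a number reached by 0.131% of the 17492 protein-coding genes with a listed start, and 3.68% had at least 1. The X held 42 of the 4135 peaks. Gata1 was 1 of 3 among 963 protein-coding genes on the X with at least 2 peaks in the gene body (0.312%), and 2.7% had at least 1. The others were Alas2, which encodes the erythroid enzyme that starts haem synthesis, and Apex2. Peaks in the gene body were rarer on the X than for all protein-coding genes, of which 1.52% had at least 2 and 9.34% at least 1. The 2 peaks of Gata1 stood alone in their window, and 21% of all protein-coding genes had at least 2 peaks within 100 kb. The next peaks were 109 kb above the gene by coordinate, which is upstream, and 118 kb below it, both outside the limit of 100 kb and in other genes: the upper one was inside Was and the lower one inside Otud5. Was encodes a regulator of the actin skeleton in blood cells. None of the other 9 coding neighbours in the window, among them Hdac6, a deacetylase gene 11.2 kb away, Glod5 at 27.5 kb and Suv39h1, a histone methyltransferase gene at 84.5 kb, had a peak in its body.

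**Figure D1:**
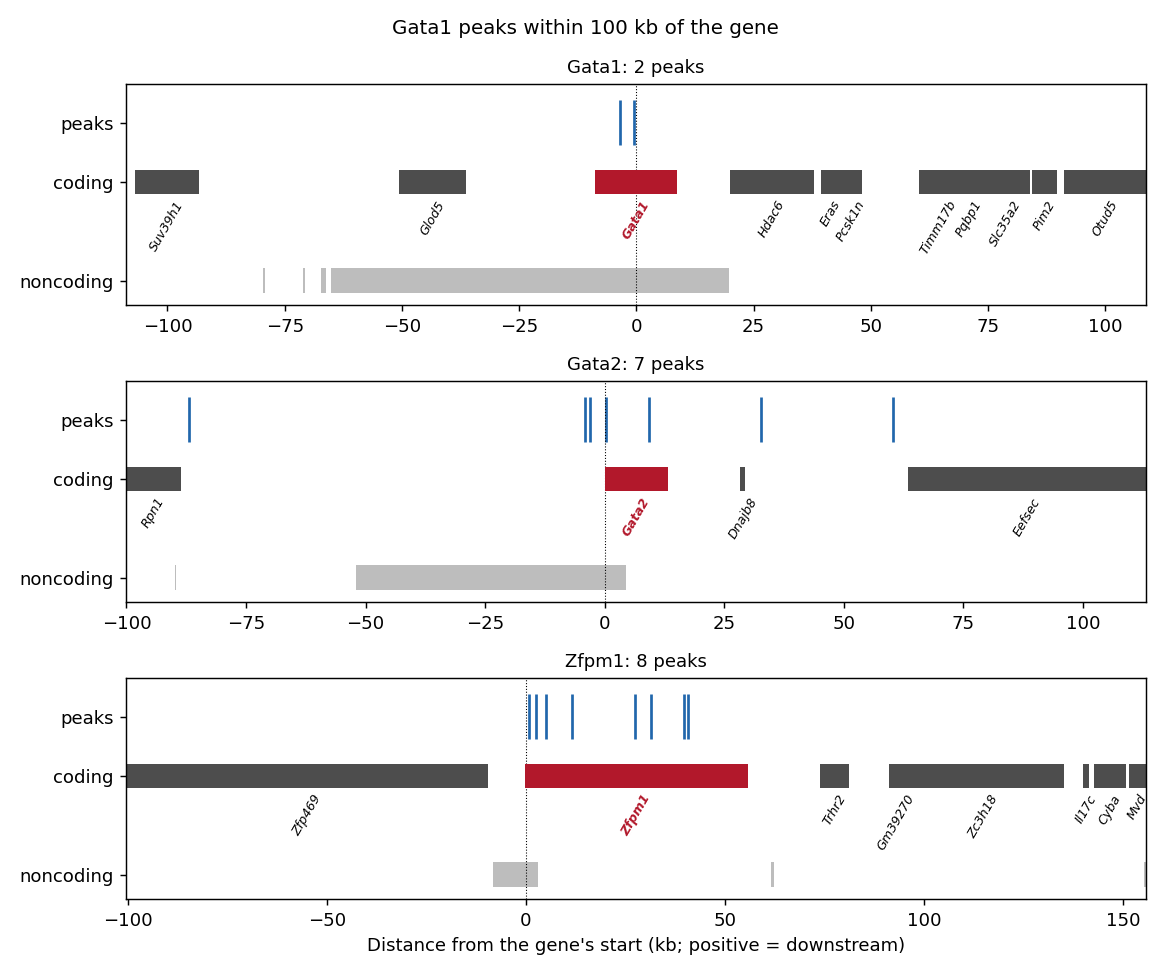
Peaks within 100 kb of Gata1, Gata2 and Zfpm1, with distance from each gene's start on the horizontal axis in kb and the gene's direction of transcription running to the right. Blue lines are peak midpoints, red bars the 3 genes, dark bars other coding genes and grey bars noncoding genes and pseudogenes. The 2 peaks at Gata1 sit just upstream of the start, the 7 at Gata2 spread over 147 kb, and the 8 at Zfpm1 all lie inside the gene.

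Gata2, which encodes the GATA factor of stem and progenitor cells, had 4 peaks close to the gene and 3 further away beside its neighbours. The 4 close ones lay at chr6:88189641-88190040, chr6:88190539-88190938, chr6:88193874-88194273 and chr6:88202984-88203383. Their midpoints were at -4.05, -3.15, 0.18 and 9.29 kb from the distal start, so 2 were upstream and 2 inside the gene. Any peak in the gene body was found for 9.34% of protein-coding genes, and any peak within 100 kb for 43.9%. The distal start is the promoter known to be used in blood cells and neurons, and the proximal one is used more generally. The peak at 0.18 kb was the nearest to the distal start. The proximal start, 4.77 kb further downstream, had its nearest midpoint 4.52 kb away.

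The 2 upstream midpoints were 0.898 kb apart, and without a height or summit per peak it cannot be said whether they are distinct sites. Both lay inside the antisense noncoding gene Gm38708, which also spans the distal start and the peak there. The other 3 peaks were at chr6:88106702-88107101, chr6:88226426-88226825 and chr6:88254018-88254417, with midpoints at -87.0, 32.7 and 60.3 kb. Each was nearest to another coding gene. The peak furthest upstream was 1.60 kb from Rpn1, which encodes a subunit of the oligosaccharyltransferase. The next was 3.37 kb from Dnajb8, a chaperone gene, and the last was 3.12 kb from Eefsec, the gene of the selenocysteine elongation factor. None of these 3 neighbours had a peak in its body. Outside the window, the next peaks were 178 kb below and 294 kb above the Gata2 gene.

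With 7 peaks within 100 kb, Gata2 was 1 of 24 among 21792 protein-coding genes with at least that number (0.11%), and the median over all of them was 0. Windows of neighbouring genes overlap, and Eefsec was also among the 24. The number of 2 peaks in the gene body, that of both Gata2 and Gata1, was reached by 1.52% of genes.

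The known elements of these genes offer places fixed by earlier work on mouse cells. Their names give a nominal distance from the start, rounded and counted from starts that may differ from the RefSeq ones, and these distances are from general knowledge and not from the deposited data. An element was counted as having a peak when a midpoint lay within 0.5 kb of that distance. By this measure 5 of 8 elements had a peak, 2 of 3 at Gata1 and 3 of 5 at Gata2. The elements were chosen with earlier results of these data known, so this number is a description and not a test.

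At Gata1, the upstream enhancer HS1, placed at -3.5 kb, had a midpoint 0.0925 kb away, and the nominal position was inside the interval. HS2, the promoter region with a palindromic GATA site placed at -0.7 kb, had a midpoint 0.168 kb away and was also inside the interval. HS3, the element of the first intron placed at 3.5 kb, had no peak nearer than 4.03 kb. Over all 17492 genes with a listed start, a peak lay within 0.5 kb of the points at -3.5, -0.7 and 3.5 kb in 0.429, 1.45 and 0.349% of genes.

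At Gata2, the elements at -3.9, -2.8, -1.8 and 9.5 kb and the far upstream enhancer at -77 kb are the sites at which GATA factors are known to bind. The midpoint nearest to -3.9 kb was 0.150 kb away, and the nominal position was inside the interval. The one nearest to -2.8 kb was 0.352 kb away, with 153 bp between the position and the interval. The intronic enhancer at 9.5 kb, which is needed for blood stem cells to form in the mouse, had a midpoint 0.208 kb away, with the interval ending 8 bp short of the nominal position. For -1.8 kb the nearest midpoint was 1.35 kb away, and for -77 kb it was 9.99 kb away. These 2 elements thus had no called peak, and the peak at -87.0 kb did not count for the far upstream enhancer. A peak at the same offset was found in 0.372, 0.303, 0.475, 0.269 and 0.257% of genes for -3.9, -2.8, -1.8, 9.5 and -77 kb. The windows of 0.5 kb around -3.9, -2.8 and -1.8 kb nearly adjoin, so most midpoints in that stretch would match 1 of these elements. The shares are for single points and do not take this into account. The peak at 0.18 kb, at the distal start, was not one of the elements listed.

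**Figure D2:**
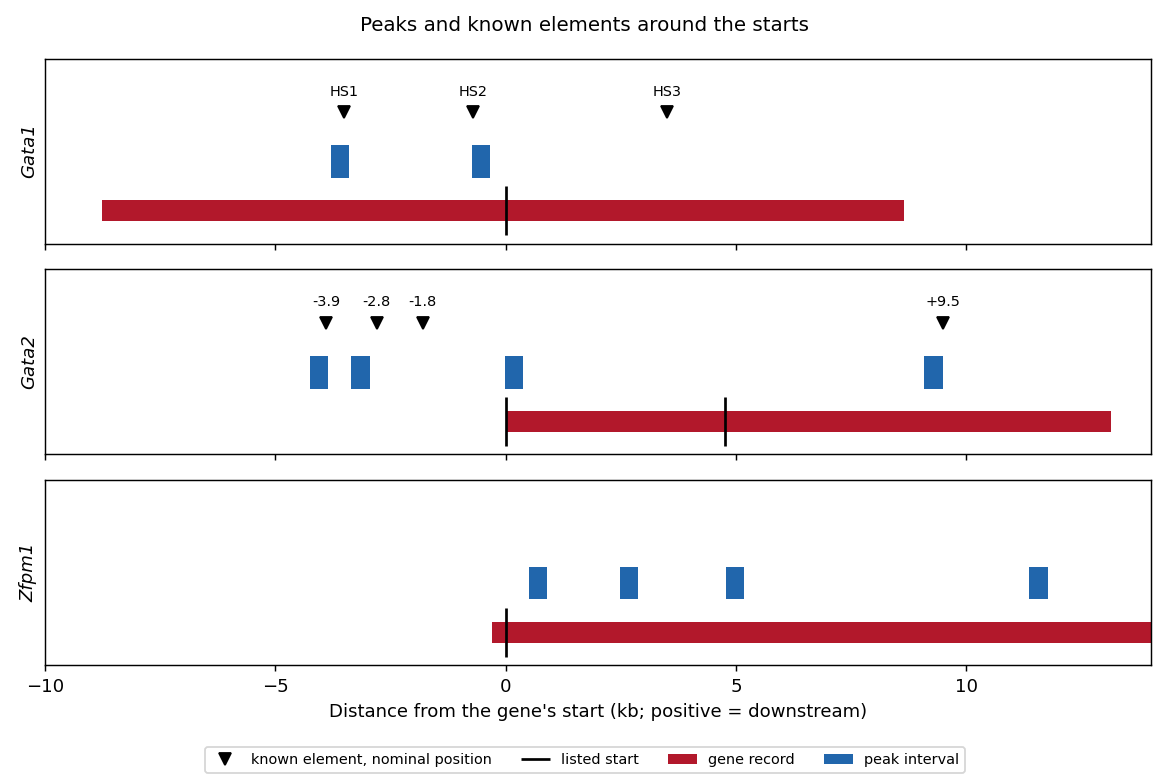
Peak intervals (blue, to scale) and known elements (black triangles at their nominal positions) from 10 kb upstream to 14 kb downstream of the listed start of Gata1, Gata2 and Zfpm1, in kb. Red bars are the gene records and black lines the listed starts. Peaks stand under HS1 and HS2 of Gata1 and under or beside the elements at -3.9, -2.8 and 9.5 kb of Gata2, and none stands under HS3 or the element at -1.8 kb.

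Zfpm1, which encodes FOG-1, had all of its peaks downstream of its start and inside the gene. The 3 nearest to the start were at chr8:122282643-122283042, chr8:122284619-122285018 and chr8:122286919-122287318, with midpoints at 0.70, 2.68 and 4.98 kb. A peak at chr8:122293511-122293910 followed at 11.6 kb. The remaining 4 lay at chr8:122309349-122309748, chr8:122313346-122313745, chr8:122321662-122322061 and chr8:122322701-122323100, with midpoints at 27.4, 31.4, 39.7 and 40.8 kb. The peaks thus formed a group of 3 near the start, a single one and 2 pairs further in. Neighbouring midpoints were 1.04 to 15.8 kb apart, the closest being the last pair. The last peak was 73.3% of the way along the gene, and none lay beyond it.

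The 2 peaks nearest to the start also lay inside Gm39269, a noncoding gene on the opposite strand. The midpoint at 2.68 kb was closer to the listed start of Gm39269, at 0.356 kb, than to that of Zfpm1. No peak lay in the 5 kb upstream of the Zfpm1 start or elsewhere within 100 kb of the gene. The next ones were 222 kb below, inside Zfp469, and 137 kb above. The nearest coding neighbours, Zfp469 at 9.21 kb and the thyrotropin-releasing hormone receptor gene Trhr2 at 18.2 kb, had no peak of the Zfpm1 window in their bodies.

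Among 21792 protein-coding genes, Zfpm1 was the only one with at least 8 peaks in the gene body, or 0.00459%, and 1 gene, Gse1, had 7. Counted per length, Zfpm1 had 1.43 peaks per 10 kb of gene body (95% exact Poisson interval 0.617 to 2.81), Gata2 had 1.52 (0.184 to 5.50) and Gata1 had 1.15 (0.139 to 4.15). These intervals cover counting error only, and they overlap. As many peaks per length were found in 0.693% of genes for Zfpm1, 0.652% for Gata2 and 0.950% for Gata1. A short gene can reach such a density with 1 peak, and how many of these genes did so was not counted. The Gata1 values rest on the gene record, since both of its peaks lay upstream of the listed start. With 8 peaks within 100 kb, Zfpm1 was 1 of 7 genes with at least that number (0.0321%). The others were Gse1, Elf2 and 4 genes whose windows overlap that of Zfpm1, namely Zfp469, Trhr2, Gm39270 and Zc3h18. Of these, Zfp469 had 11 peaks within 100 kb and Gm39270 and Zc3h18 had 9 each, more than Zfpm1.

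**Figure D3:**
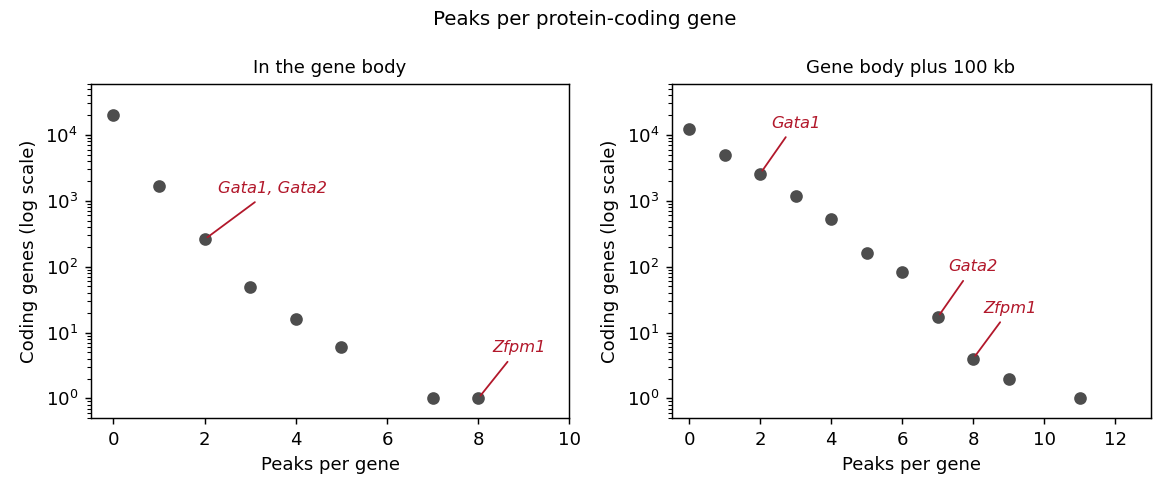
Number of protein-coding genes (vertical axis, log scale) by number of peaks per gene, in the gene body at left and with 100 kb on either side at right. Gata1 and Gata2 have 2 peaks each in the body and Zfpm1 has 8. With 100 kb, Gata1 has 2, Gata2 has 7 and Zfpm1 has 8.

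Of the 17 peaks, 14 (82.4%) had another peak within 10 kb, against 678 of the other 4118 (16.5%). The median distance to the nearest other peak was 3.06 kb for the 17 peaks and 68.4 kb for the others. The 3 peaks without such a neighbour were those beside Rpn1, Dnajb8 and Eefsec. The 17 peaks come from only 3 loci, 8 of them from Zfpm1. Their closeness thus largely restates the counts per gene, and they are not 17 independent observations. Each gene also had 1 midpoint within 1 kb of its listed start furthest upstream, although others lay as far away as the one at -87.0 kb of Gata2. The nearest was 0.53 kb away for Gata1, 0.18 kb for Gata2 and 0.70 kb for Zfpm1, against a median of 159 kb over 17492 genes. A peak at least as near was found in 2.75, 1.25 and 3.28% of genes. A peak within 1 kb was found in 3.96%.

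The nearest gene was Gata1, Gata2 or Zfpm1 itself for 14 of the 17 peaks among protein-coding genes: both at Gata1, 4 of 7 at Gata2 and all 8 at Zfpm1. Of the 17 midpoints, 12 lay inside the member gene, where it is nearest by definition, so this number is largely fixed by how the peaks were chosen. Among all annotated genes the number was 12, because the 2 upstream Gata2 peaks lay inside Gm38708. Ties were counted for the member gene. Such ties were both Gata1 peaks, inside Gm39488 and Gm52419, and the Gata2 peak at the distal start, inside Gm38708. The 2 Zfpm1 peaks nearest to the start, inside Gm39269, were ties as well.

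Other genes of the GATA pathway had fewer peaks in the gene or within 10 kb than Gata2 and Zfpm1. The genes compared were listed with earlier results of these data known, so the shares below are descriptions and not a test. Of 38 listed genes, 15 (39.5%) had a peak in the gene or within 10 kb, against the 16.6% of all protein-coding genes. None had more than 3, whereas Gata2 had 4 and Zfpm1 8. Gata1, with 2, was within the range of the listed genes. In the gene body alone the order differed for Gata2, which had 2 peaks. Runx1 had 3 there, and Lyl1 and Cbfa2t3 had 2 each. These counts were not corrected for gene length. Among partners of Gata1 in its complexes, 8 of 10 (80%) had a peak in the gene or within 10 kb. The counts that follow use the same distance. Cbfa2t3, a corepressor gene, and Runx1, a gene of stem cell emergence, had 3 each, Lyl1 and Gfi1b had 2 each, and Tal1, Ldb1, Tcf3 and Klf1 had 1 each. Lmo2, encoding the bridging protein of the Tal1 complex, had its nearest peak at 64.0 kb, and Spi1, encoding PU.1, which Gata1 antagonises, at 21.4 kb.

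Of the other GATA and FOG factor genes, 2 of 6 (33.3%) had a peak within 10 kb, against the same 16.6% of all protein-coding genes. Gata6, a gene of endoderm and heart, had 3, and Trps1, which encodes a GATA-type repressor, had 1. Gata3, Gata4 and Gata5 had theirs at 18.2, 34.0 and 51.3 kb, and Zfpm2, encoding FOG-2, the relative of FOG-1 in the heart, at 736 kb. Genes for the NuRD complex that FOG-1 recruits had a peak within 10 kb in 2 of 12 cases (16.7%), Mbd2 and Gatad2a with 1 each, which is the share among all protein-coding genes (16.6%). Coactivator genes had one in 0 of 5. Of 7 genes listed as candidate targets of the GATA switch, 5 (71.4%) had a peak, against 16.6% of all protein-coding genes. Kit, the stem cell factor receptor gene that Gata1 represses in mouse erythroid cells, and Cdx2 had 1 each, and Samd14 had 2. Tal1 and Lyl1 are also counted among the partners above, so the shares of these groups are not independent. Hdc and Myc had none. A count of 0 means that no peak was called.

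**Figure D4:**
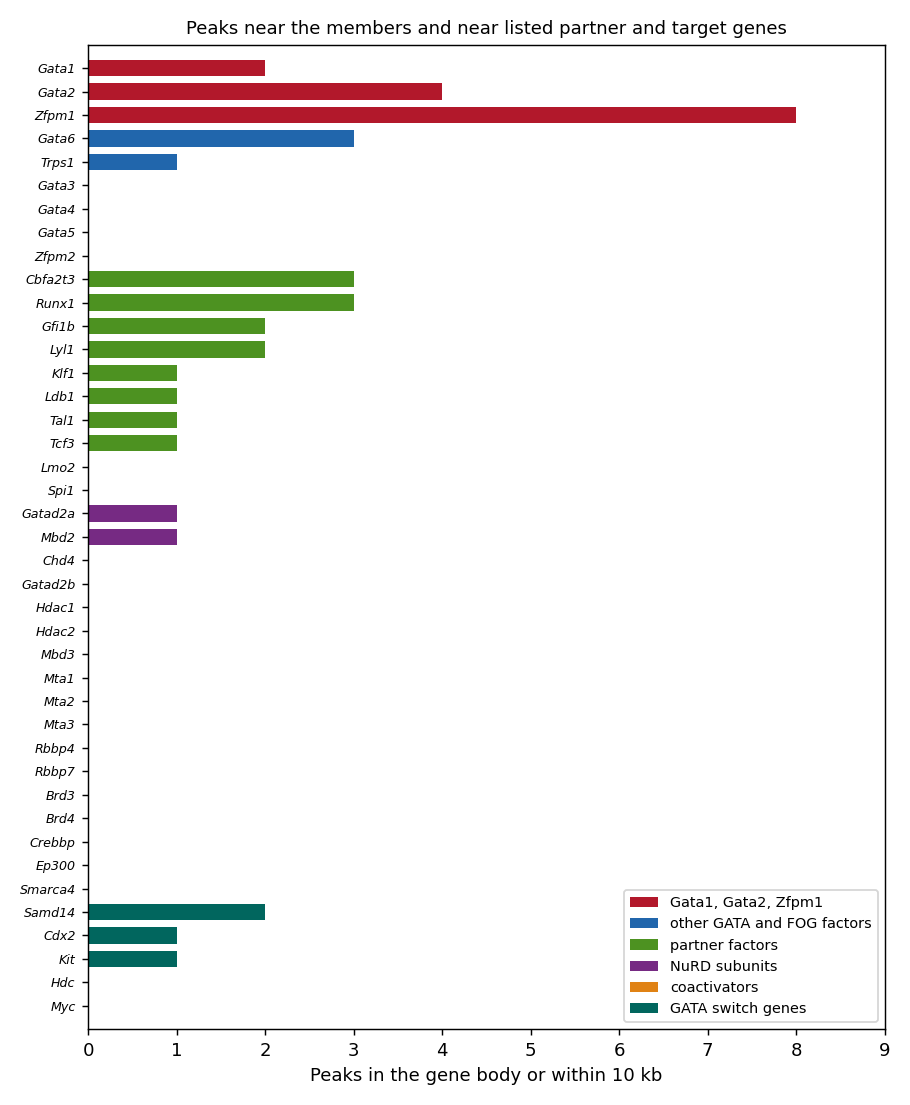
Number of peaks in the gene body or within 10 kb (horizontal axis) for Gata1, Gata2 and Zfpm1 at the top and for the 38 listed genes below, coloured by group. Zfpm1 has 8, Gata2 has 4 and Gata1 has 2, and no listed gene has more than 3.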

How the data were processed

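The authors deposited, for the Gata1 ChIP library, a list of peak positions in base pairs with chromosome, start and end and no score, signal or other value. Per the submitters' processing notes, Bowtie2 2.0.6, MACS2 2.0.10 and build mm10 were used. Settings, threshold, use of the control and filters: not given in the sources used here. Per the labels' protocols, chromatin was fixed with 1% formaldehyde, 7 µg of antibody was used and fragments of 150 to 400 bp were selected, which limits how finely a site is placed.

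Positions are printed 1-based. Gene spans came from a RefSeq table of GRCm38.p6, without 340 entries below 3 Mb (49640 genes, 21792 protein-coding). All 3 members matched it, and starts, strands and start sequences came from a RefSeq start table that held 17492 of the coding genes. Exons were not used here, and 1 planned marker gene is not reported here. Sequence inside the peaks was not analysed here except where a start window reached into one, so the planned count of motifs over whole peaks was made in the start windows alone. Python 3.11.15, numpy 2.4.6, pandas 2.3.3, scipy 1.17.1 and matplotlib 3.10.9 were used, and the window count was tested on simulated data. The members, lists and elements were chosen with earlier results of these data known. Named genes were the members, their neighbours, genes holding a peak of a locus, listed genes and genes with as many peaks as Zfpm1; Gse1, Elf2, Alas2, Apex2, Was, Otud5, Suv39h1, Gm39270 and Zc3h18 were chosen after their values were seen. Alternatives were the window, any overlap, close intervals counted once, the distance to an element, and the gene set for the nearest gene. Counting peaks from the listed start was added after seeing the data.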

Additional observations from a re-analysis of the deposited data

How the results depend on the processing

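The count at Zfpm1 was 8 or 9 under every window tried (10, 50 and 200 kb), with any overlap and with intervals within 1 kb counted once. Under the same alternatives the count at Gata1 was 2 except for 7 with a window of 200 kb, and the count at Gata2 was 6 to 8 except for 4 with a window of 10 kb. A wider or narrower window takes in more or fewer peaks by construction. The number of known elements with a peak was 4 with a distance of 0.25 kb, where the Gata2 element at -2.8 kb dropped out, and 5 with 1 kb. Of the 38 listed genes, 34 had a peak with 100 kb and 11 with 1 kb, against 15 with 10 kb. Among all protein-coding genes, 43.9% had a peak with 100 kb and 16.6% with 10 kb, and the share with 1 kb is not given here. Counted from the listed start to the gene end, peaks inside the gene were 0 for Gata1, 2 for Gata2 and 8 for Zfpm1, against 2, 2 and 8 by the gene record, an alternative chosen after seeing the data. No paired analysis was possible because there is 1 ChIP library and the results come from no test. Depth is unknown, and it limits every statement that no peak was called.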
